A study of Homo sapiens with 4 samples.

Results

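The genes described here are 56 genes of DNA replication and S phase, taken from a list of symbols that covers origin licensing, the replicative helicase, the polymerases, the sliding clamp and its loader, and the supply of nucleotides and chromatin proteins. All 56 symbols matched 1 Ensembl identifier each, of 60658 identifiers in the files. The list groups genes by function and no measured value enters its rule, but it was drawn up with earlier results of these data known. The study silenced TMEM161A, which encodes a membrane protein, in colorectal cancer cells and followed proliferation and the cell cycle among other readouts. Poly(A)-selected RNA was sequenced from the established lines HT29 and LIM1215, both derived from human colorectal cancer. For each line there was a library labelled NC, from cells with a negative control small interfering RNA (siRNA), and a library labelled si2, in which the siRNA was directed at TMEM161A. The 4 groups held 1 library each, and the labels name no further agent, time or dose. With 1 library a group there is no replicate check, so no difference carries a p-value or an error between cultures, and an effect of the siRNA and a difference between single cultures cannot be told apart.

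DNA replication starts in G1, when the origin recognition complex, CDC6 and CDT1 load the ring-shaped MCM2-7 helicase onto DNA. In S phase the addition of CDC45 and the GINS complex turns this ring into an active helicase, and primase, polymerases alpha, delta and epsilon, the clamp PCNA and its loader RFC copy the unwound strands. Many of these genes are transcribed around the entry into S phase under E2F transcription factors, which RB family proteins hold in check, and their mRNA levels follow the share of cycling cells in a culture. In bulk RNA, fewer cells in S phase and less mRNA per S phase cell cannot be told apart.

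Values are FPKM, fragments per kilobase of gene, scaled by the size of the library. The estimated depth was 18.1 to 21.5 fragments per kilobase at an FPKM of 1, and the 56 genes rested on an estimated 117 fragments or more in every library. TMEM161A, the targeted gene, was listed at 42.6 and 4.64 in the HT29 control and siRNA libraries and at 39.1 and 7.61 in LIM1215, so the siRNA libraries held 10.9% and 19.4% of control. Of 10 colon epithelial markers, 5 (CDX1, VIL1, KRT20, CDH17 and LGALS4) lay under an FPKM of 1 in both libraries labelled HT29, whereas in both LIM1215 libraries all 10 were at 67.8 or more. Markers this low are unusual for HT29, so the identity of the line is in doubt and was not tested, and HT29 stands here for the label alone. Of the markers of other cell types, 4 of 5 leukocyte, 4 of 5 fibroblast and 4 of 4 endothelial genes were under an FPKM of 1 in all libraries. The exceptions were CD68, between 6.22 and 9.82 in HT29 and between 58.1 and 72.2 in LIM1215, and COL1A1, between 4.83 and 17.6. PTPRC, CD3E and LUM were listed at 0 throughout.

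Nearly all replication genes were lower with the TMEM161A siRNA, in both lines. The measure was the log2 ratio, siRNA over control within a line, after a pseudocount of 1 was added to each FPKM, a scale that understates the change of low genes. The ratio was below 0 for 54 of the 56 genes in HT29 and for 54 in LIM1215, against 44.4% and 46.4% of the 14803 genes with a mean FPKM of at least 1. It was below 0 in both lines for 53 of the 56, against 28.0% of all genes compared. Over the 56 genes the median was −0.55 in HT29 and −0.59 in LIM1215, beside 0.04 and 0.02 over all genes compared. The FPKM of the 56 genes summed to 2806 in the HT29 control and 1902 with the siRNA, and to 2625 and 1811 in LIM1215.

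The differences were moderate in size for most genes. In HT29, 26 of the 56 were lower by 1.5-fold or more, against 6.91% of all genes compared, and in LIM1215, 28 were, against 6.18%. Over all genes compared in HT29, 1023 were lower and 1165 higher by 1.5-fold, and after rescaling to a common sum of FPKM 1372 were lower and 990 higher. By 2-fold or more, 9 were lower in HT29, against 1.95% of all genes, and 3 in LIM1215, against 1.78%. None of the 56 was higher by 1.5-fold in either line, whereas 7.87% of all genes were in HT29 and 6.63% in LIM1215. In both lines at once 19 of the 56 were lower by 1.5-fold, against 2.14% of all genes, and 2 by 2-fold, CDC6 and USP1, against 0.466%. With a pseudocount of 5 the count of 19 became 12.

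**Figure D1:**
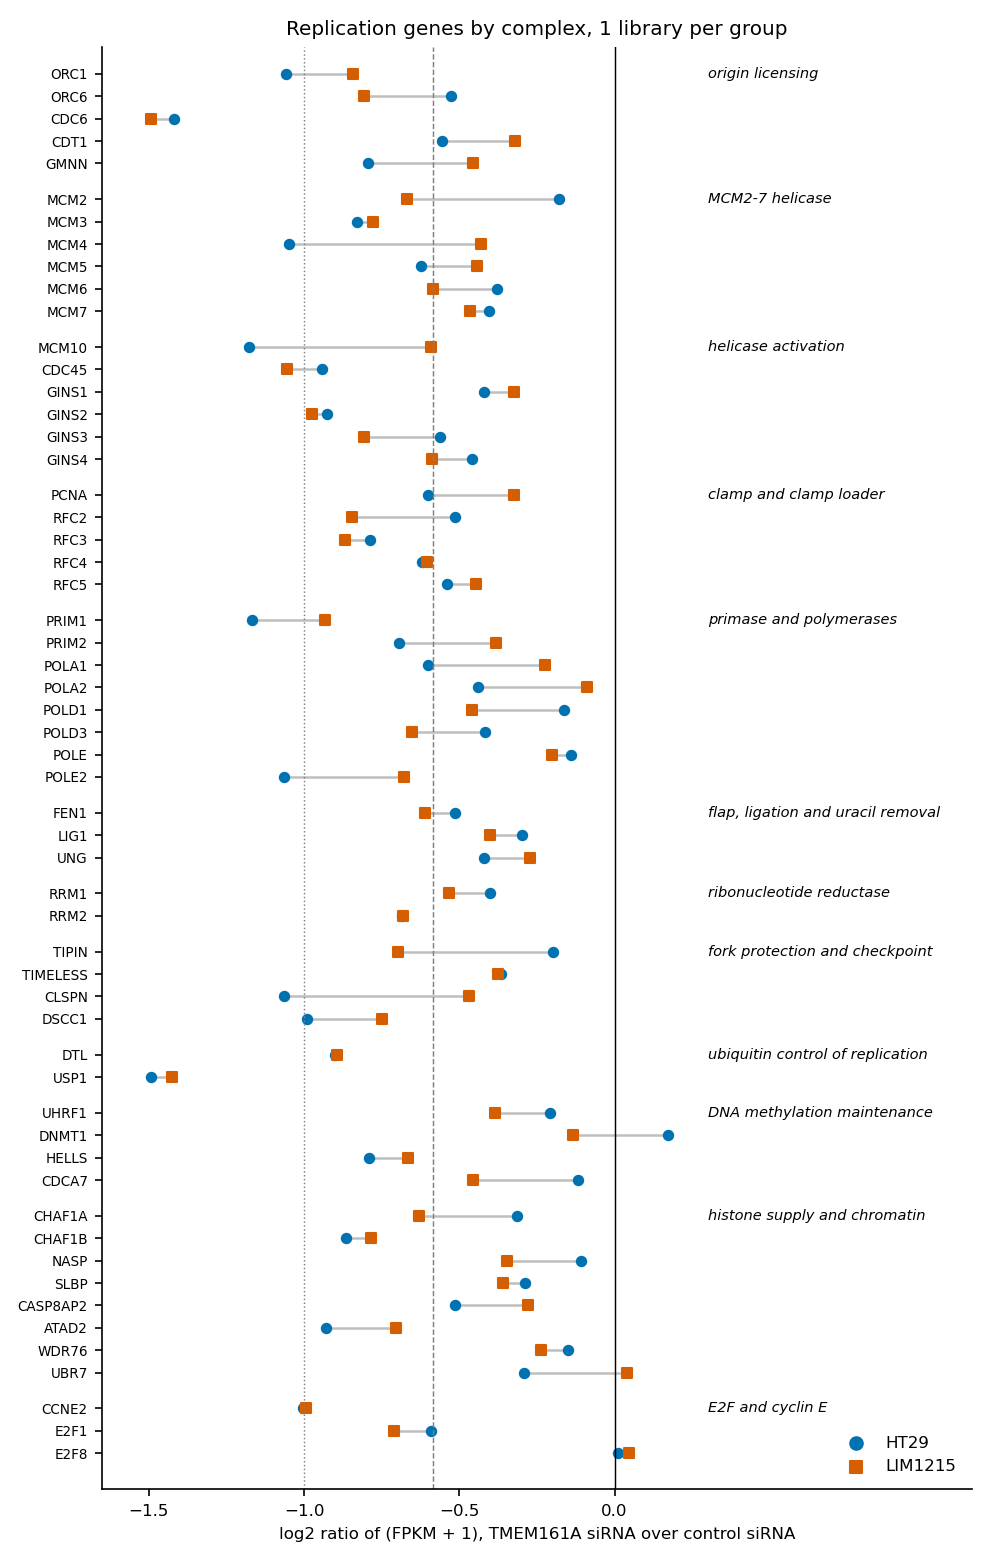
Log2 ratio of FPKM plus 1, TMEM161A siRNA over control siRNA, for each of the 56 genes (rows, grouped by complex), with HT29 as circles and LIM1215 as squares, 1 library per group and no error bars. The dashed and dotted lines mark 1.5-fold and 2-fold lower. Nearly all points lie left of 0, and only DNMT1, UBR7 and E2F8 have a point to its right.

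Counting error was small beside these differences. A 95% interval of each ratio was computed from the estimated fragments by the exact Clopper-Pearson method, and it covers counting error only. The interval lay wholly below no change for 54 of the 56 genes in HT29, against 28.7% of 13822 genes of sufficient length, and for 53 in LIM1215, against 29.2%. The exceptions were DNMT1 and E2F8 in HT29, and UBR7, E2F8 and POLA2 in LIM1215.

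Origin licensing genes were among those with the lowest ratios. ORC1, the largest subunit of the origin recognition complex, was listed at 14.1 in the HT29 control and 6.24 in the siRNA library, and at 16.01 and 8.49 in LIM1215, log2 ratios of −1.06 and −0.84. CDC6 (ENSG00000094804, chromosome 17, 40287879 to 40304657, plus strand), the ATPase that recruits the MCM ring to origins, was at 87.5 and 32.1 in HT29 and at 79.3 and 27.5 in LIM1215. The HT29 value was 36.7% of control (counting interval from 35.2% to 38.3%), and the LIM1215 value 34.7%, with 33.1% to 36.4%, log2 ratios of −1.42 and −1.49. Both siRNA libraries were far below both controls for CDC6, and the lines hardly differed.

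CDT1, the partner of CDC6 in loading MCM2-7, was lower by less. It was at 53.7 and 36.2 in HT29 and at 49.1 and 39.1 in LIM1215, log2 ratios of −0.56 and −0.32. GMNN encodes geminin, the inhibitor that binds CDT1 outside G1, and its log2 ratios were −0.80 and −0.46. The ratio of CDT1 to GMNN levels was 1.23 in the HT29 control and 1.46 with the siRNA, and 0.887 and 0.976 in LIM1215. The origin recognition subunit ORC6 had log2 ratios of −0.53 and −0.81. The median over the 5 licensing genes was −0.80 in HT29 and −0.81 in LIM1215.

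All 6 subunits of the MCM2-7 ring were lower in both lines, but by unequal amounts. In the ring each subunit is present once, whereas the mRNA levels per length spanned 6.71-fold in the HT29 control, from MCM2 at 40.8 to MCM4 at 274, and 4.63-fold in the LIM1215 control. MCM4 was at 274 and 132 in HT29 and at 204.3 and 151 in LIM1215, log2 ratios of −1.05 and −0.43. MCM2 did the reverse, at 40.8 and 35.9 in HT29 and at 53.4 and 33.2 in LIM1215, log2 ratios of −0.18 and −0.67. For both genes each siRNA library lay below the control of its line. The size of the difference was not the same in both lines, and whether it depended on the line was not tested.

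MCM3 differed little between lines, at 116 and 64.7 in HT29 and at 120.3 and 69.7 in LIM1215, log2 ratios of −0.83 and −0.78. MCM5 was at 108 and 69.7 in HT29 and at 83.7 and 61.3 in LIM1215 (log2 ratios −0.62 and −0.44). MCM6 was at 49.3 and 37.7 in HT29 and at 44.2 and 29.1 in LIM1215 (−0.38 and −0.58). All 3 were thus lower in each siRNA library than in either control. MCM7, whose transcript also carries the microRNA gene MIR93, was at 200.9 and 152 in HT29 and at 190 and 137 in LIM1215 (−0.40 and −0.47). The median over the 6 subunits was −0.51 in HT29 and −0.52 in LIM1215.

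The factors that convert the loaded ring into a moving helicase were lower as well. CDC45, the protein that joins MCM2-7 and GINS in the active helicase, was at 23.8 and 11.9 in HT29 and at 24.9 and 11.4 in LIM1215, log2 ratios of −0.94 and −1.06. GINS2, a subunit of the 4-part GINS ring clip, was at 20.3 and 10.20 in HT29 and at 21.8 and 10.6 in LIM1215, log2 ratios of −0.93 and −0.98. Both genes were at about the same level in the controls of the 2 lines and were close to 50% of it with the siRNA, at 50.1% and 46.0% for CDC45 and 50.3% and 48.6% for GINS2.

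The other GINS subunits were lower too. GINS1 had log2 ratios of −0.42 and −0.32, GINS3 of −0.56 and −0.81 and GINS4 of −0.46 and −0.59. MCM10, which helps fire the assembled helicase, was at 26.1 and 10.95 in HT29 and at 21.1 and 13.6 in LIM1215, log2 ratios of −1.18 and −0.59.

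**Figure D2:**
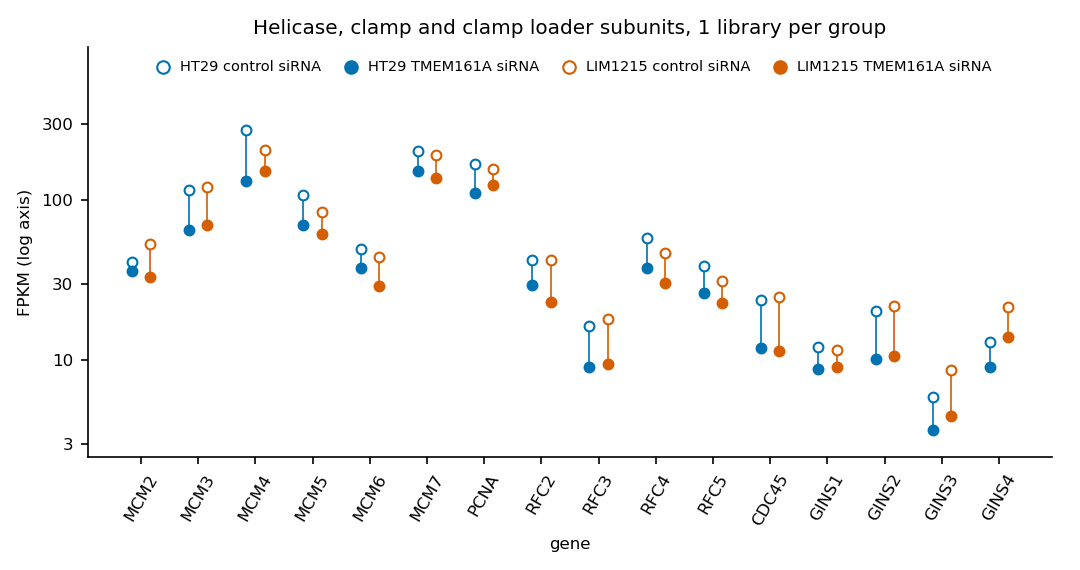
FPKM on a log axis for the MCM2-7 subunits, PCNA, RFC2, RFC3, RFC4, RFC5, CDC45 and the GINS subunits in the 4 libraries. Control siRNA is shown as open and TMEM161A siRNA as filled points, HT29 to the left and LIM1215 to the right of each tick. Every filled point lies below its open point, and the longest drop in HT29 among the MCM genes is that of MCM4, from 274 to 132.

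Of the clamp and its loader, all 5 genes were lower in both lines, with medians of −0.60 and −0.60. PCNA, the sliding clamp that tethers polymerases to DNA, was at 168 and 111 in HT29 and at 156 and 124 in LIM1215, log2 ratios of −0.60 and −0.32. RFC3, a small subunit of the clamp loader, was at 16.3 and 9.05 in HT29 and at 18.2 and 9.52 in LIM1215, log2 ratios of −0.79 and −0.87. The other loader subunits of the list, RFC2, RFC4 and RFC5, ranged in HT29 between log2 ratios of −0.62 and −0.51. In LIM1215 they ranged between −0.85 and −0.45. The order of the levels was the same in all 4 libraries: PCNA, RFC4, RFC2, RFC5, RFC3.

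The 8 primase and polymerase genes spread widely. PRIM1, the catalytic primase subunit, was at 38.1 and 16.4 in HT29 and at 20.1 and 10.05 in LIM1215, log2 ratios of −1.17 and −0.93. Its exons overlap those of NACA on the same strand and HSD17B6 on the opposite one, so its values are uncertain. POLE2, the second subunit of polymerase epsilon, had log2 ratios of −1.07 and −0.68. POLE, the catalytic subunit of the same enzyme, had only −0.14 and −0.20, at 48.5 and 43.9 in HT29 and 44.9 and 38.9 in LIM1215. The ratio of POLE to POLE2 levels was therefore 4.59 in the HT29 control and 9.70 with the siRNA, and 6.58 and 10.02 in LIM1215.

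POLA1, the catalytic subunit of polymerase alpha, had log2 ratios of −0.60 and −0.22, POLA2 of −0.44 and −0.09 and PRIM2, the other primase subunit, of −0.70 and −0.38. All 4 genes of the polymerase alpha-primase complex, PRIM1 included, thus had the value nearer to 0 in LIM1215. For the polymerase delta genes of the list the order was the other way. POLD1, the catalytic subunit, was at −0.16 and −0.46 and POLD3, an accessory subunit, at −0.42 and −0.65. The counting intervals of the lines overlapped for PRIM1, PRIM2 and POLD3. Of the delta and epsilon subunits outside the 56, POLD2 had 0.30 and −0.03 and POLD4 0.25 and 0.17. POLE3 had 0.04 and 0.12, and POLE4 0.41 and 0.04.

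Enzymes that finish and repair the new strands had medians of −0.42 and −0.40, beside −0.55 and −0.59 over the 56 genes. FEN1, the flap endonuclease that trims Okazaki fragments, had log2 ratios of −0.51 and −0.61. LIG1, the ligase that joins them, had −0.30 and −0.40. UNG, which removes uracil from DNA, had −0.42 and −0.27. Only FEN1 in LIM1215 passed 1.5-fold among these 3. The FEN1 exons overlap FADS2 on the same strand.

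Ribonucleotide reductase makes the deoxynucleotides for replication from a large subunit, RRM1, and a small subunit, RRM2. RRM2 was at 249 and 154 in HT29 and at 227 and 141 in LIM1215, a log2 ratio of −0.68 in each line. RRM1 was at 69.4 and 52.4 in HT29 and at 71.6 and 49.1 in LIM1215, log2 ratios of −0.40 and −0.53. The ratio of RRM2 to RRM1 levels was 3.58 in the HT29 control and 2.95 with the siRNA, and 3.17 and 2.87 in LIM1215.

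Fork protection genes were lower in both lines, by unequal amounts. TIMELESS and TIPIN form a complex that travels with the fork and, with CLSPN (claspin), passes the checkpoint signal to CHK1. TIMELESS had log2 ratios of −0.37 and −0.37. TIPIN had −0.20 in HT29 and −0.70 in LIM1215, and CLSPN had −1.06 and −0.47. DSCC1, part of an alternative clamp loader for sister chromatid cohesion, was at 13.9 and 6.52 in HT29 and at 9.34 and 5.15 in LIM1215, log2 ratios of −0.99 and −0.75.

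Both genes of ubiquitin control were among those with the largest differences. USP1 (ENSG00000162607, chromosome 1, 62436297 to 62451804, plus strand), the protease that removes ubiquitin from PCNA and FANCD2, was at 16.5 and 5.21 in HT29 and at 15.1 and 4.997 in LIM1215. The HT29 value was 31.6% of control (counting interval from 28.1% to 35.5%), and the LIM1215 value 33.1%, with 29.2% to 37.5%, log2 ratios of −1.49 and −1.42. USP1 ranked first among the 56 genes by the smaller of the 2 differences, barely ahead of CDC6, with 1.42 for each. This order depended on the pseudocount. With a pseudocount of 5 the HT29 log2 ratios were −1.07 for USP1 and −1.32 for CDC6, and CDC6 had −1.37 in LIM1215. DTL, which directs CDT1 to destruction on PCNA-bound DNA, was at 35.6 and 18.6 in HT29 and at 49.8 and 26.3 in LIM1215, log2 ratios of −0.90 and −0.89.

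Genes that keep DNA methylation through replication were the least affected group in HT29, with a median of −0.16, against −0.42 in LIM1215. DNMT1, the methyltransferase that copies methylation to the new strand, was at 118 and 133 in HT29 and at 114 and 104 in LIM1215, log2 ratios of 0.17 and −0.13. The siRNA library was thus the higher one in HT29 and the lower one in LIM1215. Its exons overlap S1PR2 on the same strand. UHRF1, which brings DNMT1 to hemimethylated DNA, had log2 ratios of −0.21 and −0.39. HELLS, a chromatin remodeller, had −0.79 and −0.67, whereas its partner CDCA7 had −0.12 and −0.45.

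Chromatin supply was uneven. CHAF1B, a subunit of the histone chaperone CAF-1, was at 12.9 and 6.65 in HT29 and at 13.2 and 7.22 in LIM1215, log2 ratios of −0.87 and −0.79. CHAF1A, its large subunit, had −0.31 and −0.63. ATAD2, a bromodomain ATPase, had −0.93 and −0.71. The histone chaperone NASP had only −0.11 and −0.35, and SLBP, which binds the stem-loop of histone mRNAs, −0.29 and −0.36. CASP8AP2, a coactivator of histone genes, had −0.51 and −0.28, and WDR76 had −0.15 and −0.24. UBR7, a PHD finger protein that binds histones, was at 13.9 and 11.2 in HT29 and at 10.9 and 11.3 in LIM1215, log2 ratios of −0.29 and 0.04.

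The E2F and cyclin genes of the list went separate ways. CCNE2, cyclin E2, was at 7.22 and 3.09 in HT29 and at 8.25 and 3.65 in LIM1215, log2 ratios of −1.01 and −0.99. CCNE1, the other cyclin E and not one of the 56, had −0.14 and 0.13. The ratio of CCNE1 to CCNE2 levels was 1.99 in the HT29 control and 4.20 with the siRNA, and 1.96 and 4.88 in LIM1215.

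E2F1, an activator of S phase genes, was at 17.3 and 11.2 in HT29 and at 17.6 and 10.3 in LIM1215, log2 ratios of −0.59 and −0.71. E2F8, an atypical E2F that represses such genes, was at 7.61 and 7.69 in HT29 and at 5.14 and 5.34 in LIM1215, log2 ratios of 0.01 and 0.05. The counting intervals of E2F8 included no change in both lines, and its HT29 value lay between −0.06 and −0.02 under 3 of the 9 alternative settings, all of them other scalings. The E2F1 to E2F8 level ratio was 2.28 in the HT29 control and 1.45 with the siRNA, and 3.42 and 1.94 in LIM1215.

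Exons of several of these genes overlap those of a neighbour on the opposite strand, among them GINS2 (GSE1), DTL (INTS7), CCNE2 (INTS8), RFC4 (EIF4A2) and E2F8 (CSRP3-AS1). CHAF1B overlaps MORC3 on the same strand, and TIPIN the pseudogene RPL9P25. CDC45, MCM2 and UBR7 overlap genes without a symbol, and RRM1 an antisense RNA. Because strand use in the counting is not given in the sources used here, reads of these pairs may be mixed.

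**Figure D3:**
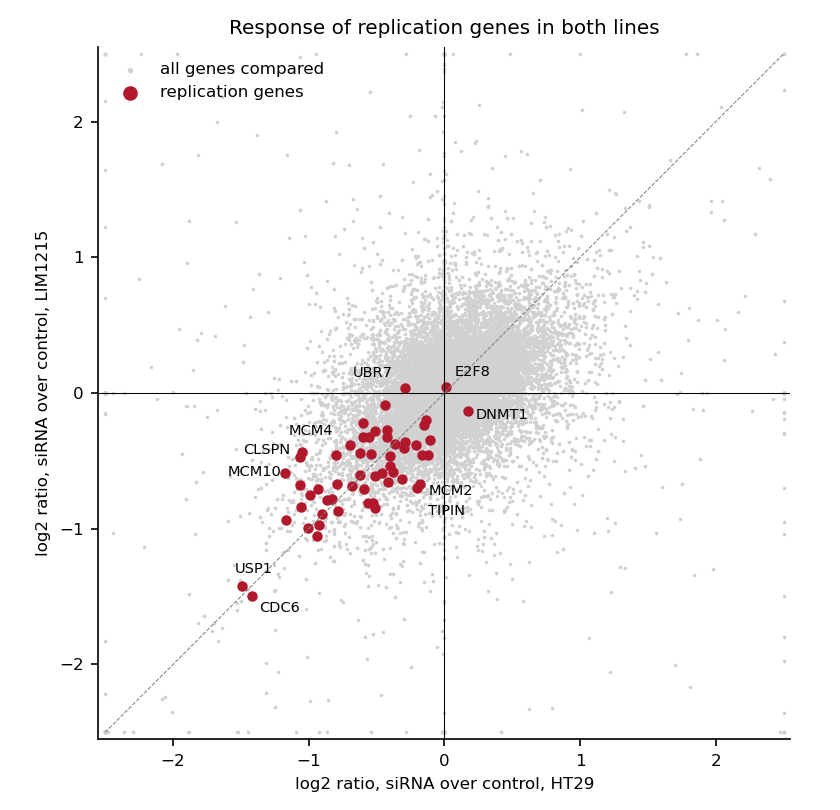
Log2 ratio in LIM1215 against that in HT29 for all 14803 genes compared (grey) and the 56 replication genes (red), with values beyond 2.5 drawn at the edge and the diagonal dashed. The replication genes lie in the lower left part, apart from DNMT1, UBR7 and E2F8, with USP1 and CDC6 at its lower end.

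The responses of the lines resembled each other across these genes. Over the 56 genes Pearson's r between the log2 ratios of HT29 and LIM1215 was 0.71 and Spearman's rho 0.63, as a description across genes that are not independent, with a separate control library in each line. The ratios had little relation to control level, with r of 0.09 in HT29 and 0.01 in LIM1215. They had a weak relation to transcript GC content, with r of 0.39 and 0.23.

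The size of the difference nonetheless varied between lines for single genes. The counting intervals of the 2 lines did not overlap for 22 of the 56 genes, which is near the 41.8% found over all genes, so this count is not particular to replication genes. The 22 included MCM4, CLSPN and MCM10, with the lower ratio in HT29. TIPIN and MCM2 had the lower ratio in LIM1215. MCM4 was at 48.1% of control in HT29 (47.0% to 49.2%) and 74.0% in LIM1215 (72.2% to 75.9%), and MCM2 at 88.0% (83.3% to 92.9%) and 62.2% (58.9% to 65.8%). With 1 library a group a difference between the lines was not tested.

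**Figure D4:**
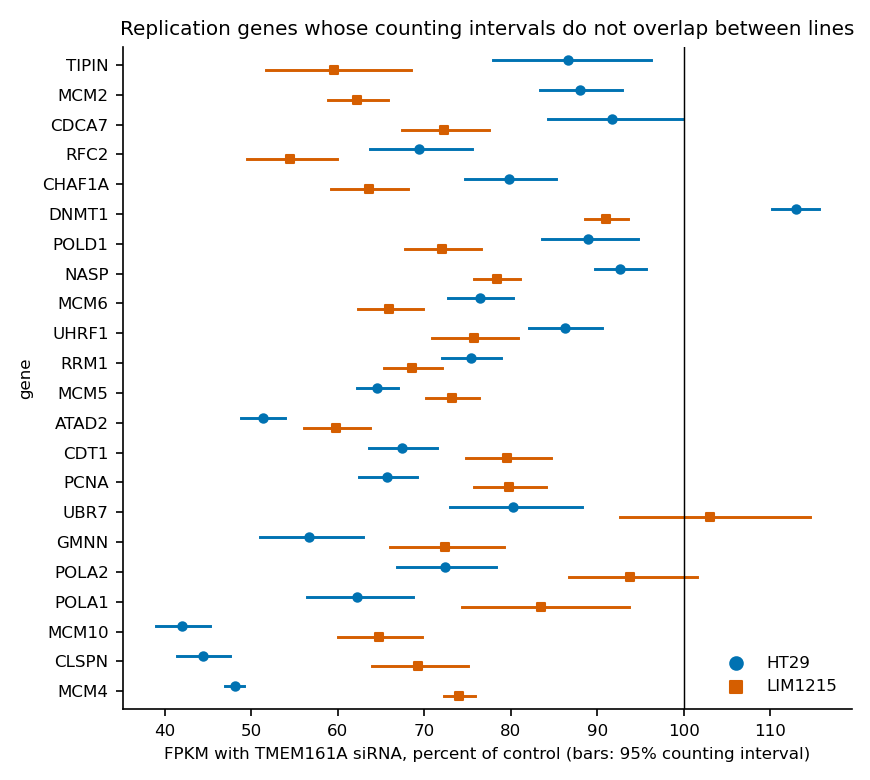
FPKM with the TMEM161A siRNA as a percent of control in HT29 (circles) and LIM1215 (squares) for the 22 genes whose 95% counting intervals (bars) do not overlap between the lines. From top to bottom the genes go from a lower value in LIM1215 (TIPIN, MCM2) to a lower value in HT29 (MCM4, CLSPN, MCM10), and the bars cover counting error only.

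With the control siRNA the lines held replication mRNAs at similar levels. In the control libraries 3 of the 56 genes were higher by 1.5-fold or more in LIM1215 than in HT29, against 21.8% of all genes, and 3 were lower, against 16.3%. The higher ones were CDCA7, POLD3 and GINS4 and the lower ones PRIM1, ATAD2 and CLSPN. Across the 56 genes the control levels of the lines had an r of 0.96 on the log2 scale. The median FPKM of the 56 was 33.3 in the HT29 and 28.9 in the LIM1215 control, and 20.6 and 20.2 in the siRNA libraries.

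The promoters of the 56 genes were searched for sequences of the kind that E2F binds, because many of these genes are textbook E2F targets. The share of genes with a match describes the list and uses none of the ratios. The search used the 250 bases before each annotated start in the RefSeq table (GRCh38.p14), where 47 of the 56 symbols had an entry. An E2F-type match was TTTCGCGC, TTTGGCGC or TTTCCCGC on either strand, which can overlap each other. Of the 47 genes 20, or 42.6%, had a match at some start. The share was 4.74% of 10512 genes compared that had an entry and 2.85% of all 27305 genes in the table. The CCAAT box, in either direction, was present for 31 of the 47, or 66.0%, against 41.4% of genes compared and 37.0% of all genes in the table. The cell cycle homology region of G2 and M phase genes, searched as TTTGAA or TTCGAA on either strand, was present for 4, or 8.51%, against 13.2% and 17.2%.

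The windows of 30 bases below hold E2F-type matches and are written 5′ to 3′ on the strand of the gene. Capitals mark 1 match per window. Each MCM6 window also holds a TTTCGCGC match in the reverse direction, which overlaps the marked one and is partly in small letters. The first 4 belong to those of the 12 genes with the largest shared differences that had an entry and a match. The MCM6 windows were added as an example of separate matches in 1 promoter, which MCM7 and HELLS also held, and POLE and UBR7 as genes with a match but little difference, a choice made after their values were seen.
GINS2, chr16:85688967-85688996, minus strand: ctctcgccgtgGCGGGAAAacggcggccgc
DTL, chr1:212035718-212035747, plus strand: caatcagagagcgtgacgtcagTTTGGCGC
RFC3, chr13:33818083-33818112, plus strand: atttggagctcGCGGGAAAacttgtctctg
MCM3, chr6:52284898-52284927, minus strand: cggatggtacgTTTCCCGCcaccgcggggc
MCM6, chr2:135876515-135876544, minus strand: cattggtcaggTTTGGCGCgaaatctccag
MCM6, chr2:135876577-135876606, minus strand: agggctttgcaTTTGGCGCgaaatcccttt
POLE, chr12:132687343-132687372, minus strand: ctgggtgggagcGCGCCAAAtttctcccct
UBR7, chr14:93207226-93207255, plus strand: acgcccctcacggccgctTTTCCCGCctcc

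Among the 47 genes, those with a match did not have lower ratios than those without. The medians were −0.53 in HT29 and −0.46 in LIM1215 for the 20 genes with an E2F-type match, and −0.54 and −0.61 for those without. USP1 and CDC6, with the lowest ratios, held no E2F-type match in the window searched, whereas POLE, UBR7 and UHRF1 held one or more. Among 477 other genes with a single identifier and an E2F-type match, 8.39% were lower by 1.5-fold in HT29 and 6.92% in LIM1215. These shares lay near the 6.91% and 6.18% of all genes, and the medians were 0.00 and −0.03. Only exact matches in the window searched were counted, so textbook E2F targets can be among the genes without a match. Whether E2F had a part in the lower ratios was not tested.

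A further 82 genes of replication, listed by function and not among the 56, were examined in the same way. Their median was −0.33 in HT29 and −0.32 in LIM1215, and 19 were lower by 1.5-fold in HT29, against 6.91% of all genes, and 14 in LIM1215, against 6.18%. In both lines 7 were lower by 1.5-fold, against 2.14% of all genes, and 2 were higher, against 1.88% of all genes higher in both. The medians differed between the lists by function. Other licensing and origin firing genes (16) had medians of −0.53 and −0.45, beside −0.55 and −0.59 for the 56 genes. Fork enzymes (7) had −0.77 and −0.41, and nucleotide supply genes (10) −0.40 and −0.31. Checkpoint genes (10) had −0.23 and −0.26, histone chaperones (7) −0.05 and −0.17, and E2F, RB and cyclin genes (20) −0.17 and −0.13. Polymerase, clamp loader and RPA subunits outside the 56 (12 genes) had −0.05 and −0.05.

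**Figure D5:**
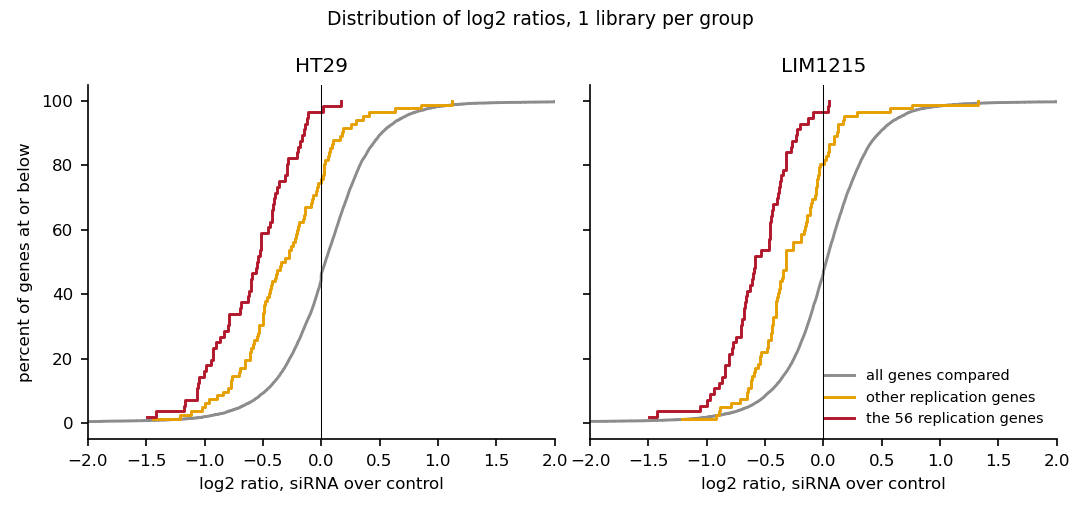
Cumulative percent of genes at or below each log2 ratio, TMEM161A siRNA over control, for the 56 replication genes (red), the 82 other replication genes (orange) and all 14803 genes compared (grey), drawn from −2 to 2. Outside the far tails, the red curve lies left of the orange one in both lines and the orange one left of the grey, with medians of −0.55, −0.33 and 0.04 in HT29.

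Named by the smaller of their 2 differences, the other replication genes with the lowest shared ratios included PCLAF, MCM8, ORC3, RNASEH2B and FBXO5. PCLAF, a PCNA-binding protein, had log2 ratios of −1.03 and −0.92, and MCM8, a helicase of recombination, −0.96 and −0.90. ORC3, a subunit of the origin recognition complex, had −0.84 and −1.21. RNASEH2B, of the enzyme that clears ribonucleotides from DNA, had −1.12 and −0.79, and FBXO5, the inhibitor of the anaphase-promoting complex, −0.71 and −0.65. Exons of RNASEH2B overlap GUCY1B2 on the opposite strand, and those of PCLAF, MCM8 and FBXO5 overlap genes without a symbol.

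TYMS, thymidylate synthase, had −0.54 and −0.26, and its exons overlap ENOSF1 on the opposite strand. CHEK1, the replication checkpoint kinase, had −0.43 and −0.19, and overlaps STT3A on the same strand. The 2 genes higher by 1.5-fold in both lines were CDKN1A and E2F5. CDKN1A encodes p21, the inhibitor of cyclin E and CDK2, and was at 189.9 and 414 in HT29 and at 206 and 518 in LIM1215, log2 ratios of 1.12 and 1.33. E2F5, a repressor E2F, was at 7.59 and 12.3 in HT29 and at 19.4 and 33.6 in LIM1215, log2 ratios of 0.63 and 0.76. CDKN1A overlaps the antisense RNA DINOL, and E2F5 overlaps RBIS on the opposite strand. The part of p21 in the lower replication mRNAs was not tested.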

How the data were processed

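The authors deposited 1 table of FPKM per library, with 60658 Ensembl identifiers each. Per the submitters' processing notes, the tools were HISAT2 2.1.0, SAMtools 1.20, Cuffdiff and Cufflinks 2.2.1 on GRCh38. Their settings, the gene annotation, strand handling and scaling between libraries are not given in the sources used here. Per the labels' protocols, a stranded mRNA kit was used.

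Symbols, positions and transcript lengths came from GENCODE release 44 (GRCh38), which matched 56550 identifiers. Exons of 28 of the 56 genes overlap another gene, 11 on the same strand and 20 on the opposite one, so shared fragments make these uncertain. Log2 ratios used FPKM plus 1 and genes with a mean FPKM of at least 1, which all 56 and all 82 other genes passed. Calls were by size (1.5-fold or 2-fold), without a test. The lines were compared separately and were not treated as replicates.

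Fragments were estimated from the steps of low FPKM in genes with 1 transcript. Between 78.3% and 80.3% of these values lay within 0.03 of a whole fragment, so depths are estimates. The scripts were tested on simulated data.

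The genes with values in all libraries were the 12 largest shared differences, those not lower in both lines, MCM2-7 and 10 set genes. MCM10 and POLE were added after their values were seen. For the other 82 genes they were up to 8 past 1.5-fold in both lines, with CCNE1, CDKN1A, TYMS and CHEK1. A gene that this rule picks is not reported here. The 56 genes, the lists and these rules were chosen with earlier results of these data known. Python 3.11.15, scipy 1.17.1 and statsmodels 0.14.6 were used.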

Additional observations from a re-analysis of the deposited data

Results flagged for a closer look

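Log2 ratios of opposite sign in the 2 lines were found for 2 of the 56 genes, DNMT1 and UBR7, and for 12 of the 82 other replication genes, against 33.8% of all genes compared. With 1 library a group these differences between the lines were not tested. DNMT1 had 0.17 in HT29 and −0.13 in LIM1215, a difference (LIM1215 minus HT29) of −0.31, and its counting intervals excluded no change in each line. The HT29 value of DNMT1 was 0.09 with values rescaled to TPM and 0.05 after removal of the GC and length trend. UBR7 had −0.29 and 0.04, a difference of 0.33, and the LIM1215 interval of 92.7% to 115% of control included no change. Of the other replication genes, CCNE1 had −0.14 and 0.13, a difference of 0.26, and both of its intervals included no change, at 79.8% to 102% and 97.6% to 124% of control. RRM2B, the p53-inducible small subunit of ribonucleotide reductase, had the largest such difference of the 12, 0.99, with −0.70 and 0.29, and was singled out after its values were seen. Its intervals were 57.3% to 63.9% of control in HT29 and 115% to 133% in LIM1215.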

How the results depend on the processing

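The median log2 ratio of the 56 genes (−0.55 in HT29 and −0.59 in LIM1215) stayed below 0 under all alternatives run. It was −0.58 and −0.61 with a pseudocount of 0.1, −0.46 and −0.48 with a pseudocount of 5, −0.58 and −0.61 after centring on the median, and −0.57 and −0.56 after removal of the GC and length trend (lowess, fraction 0.3). In HT29 it was −0.63 with values rescaled to TPM and −0.58 with equal upper quartiles. For the 22 genes outside a widely used S phase list it was −0.53 and −0.53, and for the 28 without exon overlap −0.60 and −0.46. With a pseudocount of 5, 4 genes were lower by 2-fold in HT29, 15 by 1.5-fold in LIM1215 and 12 by 1.5-fold in both lines. The share of all genes lower by 1.5-fold was also smaller at that setting, 3.03% in HT29 and 2.34% in LIM1215. With 0.1, 5 genes were lower by 2-fold in LIM1215. No filter, a mean FPKM of at least 5, and protein-coding genes alone dropped none of the 56 genes and changed no ratio. Their medians and counts could therefore not change under these settings. In HT29 54 genes, and in LIM1215 54, were below 0 under all 9 settings of scaling, filter and pseudocount. Those settings that only select genes could not change a sign. No paired analysis was possible because each group had 1 library and no fit was made.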
